A study of Homo sapiens with 2 samples.

Results

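The EGF receptor family and its ligands were followed in MDA-MB-231, a human cell line established from a triple-negative breast cancer, with a short hairpin RNA against the kinase gene CDK14 (CDK14-sh) and in the same line with a scramble control. Members were taken by symbol from a list chosen with earlier results of these data known, and all are reported whatever their values. The 4 receptor genes were EGFR, ERBB2, ERBB3 and MET. The 6 genes of EGF-type ligands were AREG, EREG, HBEGF, TGFA, BTC and EPGN. Together they are 10 of the 29452 gene rows of the table. All 10 were found, and 6 reached 1 RPKM (reads per kilobase of exon, scaled to the assigned reads of the library) in the higher library. Each group held 1 RNA library, of 15478156 assigned reads in CDK14-sh cells and 17217564 in scramble control cells, so no difference has a replicate check, no p-value is given, and higher and lower describe these libraries. The labels do not say which hairpin was used, whether the cells were 1 clone, or how long after its delivery they were harvested.

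ERBB receptors are tyrosine kinases that pair on ligand binding and signal through RAS, ERK, PI3K and AKT. ERBB2 binds no known ligand and acts as a partner, while ERBB3 has an impaired kinase and signals through its partner. EGF-type ligands are made as membrane-anchored precursors and are released by ADAM metalloproteinases. Triple-negative breast cancers often carry high EGFR without ERBB2 amplification. MET, the receptor of hepatocyte growth factor, belongs to another receptor class and is known to exchange signals with EGFR in carcinoma cells.

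CDK14 itself had 58 reads in CDK14-sh cells and 292 in scramble control cells (0.548 and 2.48 RPKM). Of the genes taken as markers of the line, VIM, CD44, MSN, CAV1 and AXL lay between 36.1 RPKM (CAV1) and 146 RPKM (VIM) in CDK14-sh cells and between 65.2 RPKM (CAV1) and 249 RPKM (VIM) in scramble control cells. ESR1 had 8 and 2 reads, PGR 0 and 3 and CDH1 0 and 2 in CDK14-sh and the scramble control. EPCAM (5.46 and 5.33 RPKM) and GATA3 (2.56 and 2.50 RPKM), listed as low in this line, were measured in both. Among markers of other cell types, DCN and LUM had 0 reads in both libraries, which allows up to 3 reads each, PTPRC had 3 in each, PECAM1 20 and 52, and COL1A1 303 and 279. Of the 5 markers of the line, CAV1, VIM and MSN were lower in CDK14-sh (log2 ratios of -0.85, -0.77 and -1.36), AXL was at -0.08, and CD44 was higher at 0.21 (14350 reads in CDK14-sh cells and 13807 in scramble control cells). What part their differences play in the results was not tested.

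The sequences around the starts of 6 members are shown because these genes include the highest ratio (HBEGF) and the lowest ratio (MET) among the members that reached 1 RPKM, and the ligands that lie side by side on chromosome 4. Each runs from 80 bases before to 20 bases after the RefSeq gene start (GRCh38.p14), 5′ to 3′ on the gene's strand. Capitals mark matches on either strand to TATAAA (the TATA box), TGACGTCA (the cAMP response element, CRE), TGANTCA (AP-1), CACGTG (E-box), GGGCGG (SP1) or the kappa B consensus. In HBEGF 2 SP1 matches overlap.
HBEGF: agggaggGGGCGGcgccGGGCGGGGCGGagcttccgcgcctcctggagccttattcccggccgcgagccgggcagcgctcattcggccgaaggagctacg
AREG: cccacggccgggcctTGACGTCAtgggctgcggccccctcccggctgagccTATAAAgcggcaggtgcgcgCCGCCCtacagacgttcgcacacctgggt
EREG: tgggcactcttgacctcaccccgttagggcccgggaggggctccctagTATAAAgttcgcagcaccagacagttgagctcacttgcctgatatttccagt
EPGN: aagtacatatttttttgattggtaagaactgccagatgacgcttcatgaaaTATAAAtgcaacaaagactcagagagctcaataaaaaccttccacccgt
BTC: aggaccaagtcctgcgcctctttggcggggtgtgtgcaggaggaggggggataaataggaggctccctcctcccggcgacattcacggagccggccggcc
MET: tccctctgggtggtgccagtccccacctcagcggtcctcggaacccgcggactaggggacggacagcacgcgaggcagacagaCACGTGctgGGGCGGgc

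The windows lie at chr5:140346584-140346683 on the minus strand (HBEGF), chr4:74445056-74445155 (AREG), chr4:74365065-74365164 (EREG) and chr4:74308390-74308489 (EPGN) on the plus strand, chr4:74794504-74794603 on the minus strand (BTC) and chr7:116672116-116672215 on the plus strand (MET). TATAAA began 29 bases before the start in AREG and EPGN and 32 before it in EREG. Over the full windows of 250 bases before to 50 after the start, 9 of the 10 members were matched by 11 windows. TATAAA was found in 4 members, beside 11.5% of all 35116 windows. A member counts if any of its windows matches, while the percentages are over single windows, so the units differ for every motif. The CRE match of AREG lies 65 bases before its start, and 1.85% of windows hold this motif. AP-1 matches were found in EGFR and ERBB2 (7.71% of windows), the E-box in MET (7.26%), a kappa B match in TGFA (5.91%) and SP1 in 6 members (45.0%). HBEGF held 5 SP1 matches. The AP-1 and TATAAA matches of EGFR lie in the window of a second start, at chr7:55109589-55109888, while the window at the first, chr7:55018767-55019066, holds SP1 alone of these motifs. These matches describe letters in the window, and binding was not measured.

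Among the receptors, MET differed most between the libraries and was lower in CDK14-sh. EGFR was slightly lower, ERBB2 slightly higher, and ERBB3 was under 1 RPKM in both. Brackets hold 95% Clopper-Pearson intervals for counting error alone, and folds are plain ratios of RPKM unless log2 is named.

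MET (chromosome 7, 116672390 to 116798386, plus strand) stood at 8.36 RPKM in CDK14-sh (911 reads), against 16.0 RPKM in the scramble control (1944 reads). It was 1.92-fold lower (1.77 to 2.08), so the counting interval reaches past 2-fold while the value does not. In bulk RNA, fewer cells with MET RNA and less of it per cell cannot be told apart.

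EGFR (chromosome 7, 55019021 to 55211628, plus strand), to which all 6 ligands can bind, stood at 14.0 RPKM in CDK14-sh (2716 reads), against 16.3 RPKM in the scramble control (3518 reads). The difference was 1.16-fold lower (1.11 to 1.22). The antisense row EGFR-AS1 shares 186 bases with it, 1.49% of the exon length, and held 27 reads in CDK14-sh cells and 41 in scramble control cells.

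ERBB2 (chromosome 17, 39687914 to 39730426, plus strand), the partner without a ligand, stood at 2.96 RPKM in CDK14-sh (473 reads), against 2.33 RPKM in the scramble control (414 reads). It was 1.27-fold higher (1.11 to 1.45). Of its exon length, 5.53% overlaps MIEN1 on the other strand, and MIEN1 itself had 162 reads in CDK14-sh cells and 121 in scramble control cells. Whether reads of MIEN1 add to the ERBB2 difference was not tested.

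ERBB3 (chromosome 12, 56079857 to 56103505, plus strand) stood at 0.537 RPKM in CDK14-sh (72 reads), against 0.671 RPKM in the scramble control (100 reads). Its interval, from 0.583 to 1.10 times the control level, holds 1, so a difference was not detectable at this depth. Its exons share 31 bases with the row RP11-603J24.9 on the same strand, which held 2229 reads in CDK14-sh cells and 2351 in scramble control cells.

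The order of the receptors was EGFR, MET, ERBB2 and ERBB3 in both libraries, but the distances differed. In CDK14-sh EGFR stood 1.68 times above MET (1.56 to 1.81), while in the scramble control the pair differed by less than counting error (1.02 times, 0.963 to 1.08). MET stood 2.82 times above ERBB2 in CDK14-sh cells (2.52 to 3.16) and 6.89 times above it in scramble control cells (6.19 to 7.67). EGFR stood 4.74 times above ERBB2 in CDK14-sh cells (4.29 to 5.23) and 7.01 times above it in scramble control cells (6.33 to 7.78). Ratios between genes and sums over genes, here and below, rest on the summed exon length of each gene row. The intervals do not cover that length.

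**Figure D1:**
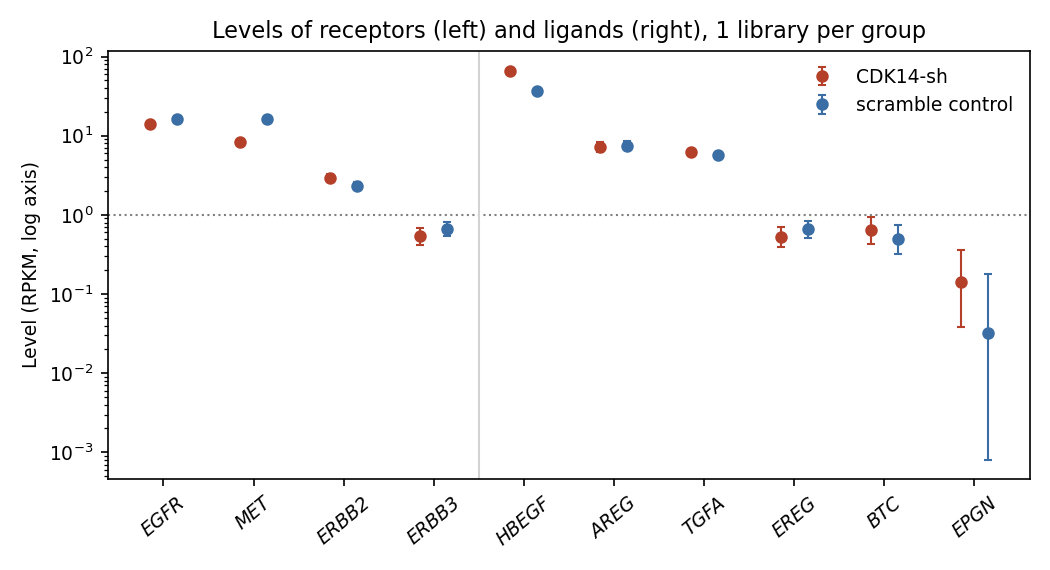
Level of each member in RPKM on a log axis, receptors left and ligands right of the vertical line, with 95% counting intervals, CDK14-sh in red and the scramble control in blue (1 library each). HBEGF stands above every other member at 64.8 RPKM in CDK14-sh cells and 36.3 RPKM in scramble control cells, and 4 members lie under the dotted line at 1 RPKM.

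HBEGF, which encodes heparin-binding EGF-like growth factor, a ligand of EGFR and ERBB4, was the most abundant member in both libraries and the one that was most clearly higher in CDK14-sh. AREG and TGFA, encoding amphiregulin and transforming growth factor alpha, both ligands of EGFR, held nearly the same level in the 2 libraries. EREG, BTC and EPGN were under 1 RPKM in both.

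HBEGF (chromosome 5, 140332843 to 140346631, minus strand) stood at 64.8 RPKM in CDK14-sh (3029 reads), against 36.3 RPKM in the scramble control (1888 reads). It was 1.78-fold higher (1.68 to 1.89), an interval that stays under 2-fold. By level it stood above 97.0% of protein-coding genes in CDK14-sh cells and above 93.8% in scramble control cells.

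AREG (chromosome 4, 74445134 to 74455009, plus strand) stood at 7.25 RPKM in CDK14-sh (185 reads), against 7.51 RPKM in the scramble control (213 reads), a ratio of 0.966 (0.789 to 1.18). TGFA (chromosome 2, 70447280 to 70554193, minus strand) stood at 6.25 RPKM in CDK14-sh (480 reads), against 5.69 RPKM in the scramble control (486 reads), a ratio of 1.10 (0.966 to 1.25). Both intervals hold 1, and the AREG interval leaves out differences beyond 1.27-fold lower and 1.18-fold higher as far as counting goes.

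EREG, BTC and EPGN encode epiregulin, betacellulin and epigen. EREG (chromosome 4, 74365143 to 74388751, plus strand) had 47 reads in CDK14-sh cells and 65 in scramble control cells (0.531 and 0.660 RPKM). BTC (chromosome 4, 74744759 to 74794686, minus strand) had 28 and 24 reads (0.642 and 0.495 RPKM). EPGN (chromosome 4, 74308473 to 74315307, plus strand) had 4 reads in CDK14-sh cells and 1 in scramble control cells, a ratio of 4.45 with an interval from 0.440 to 219, so its direction could not be read. EPGN, EREG, AREG and BTC lie within 486 kb of chromosome 4, and of these neighbours AREG alone passed 1 RPKM.

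**Figure D2:**
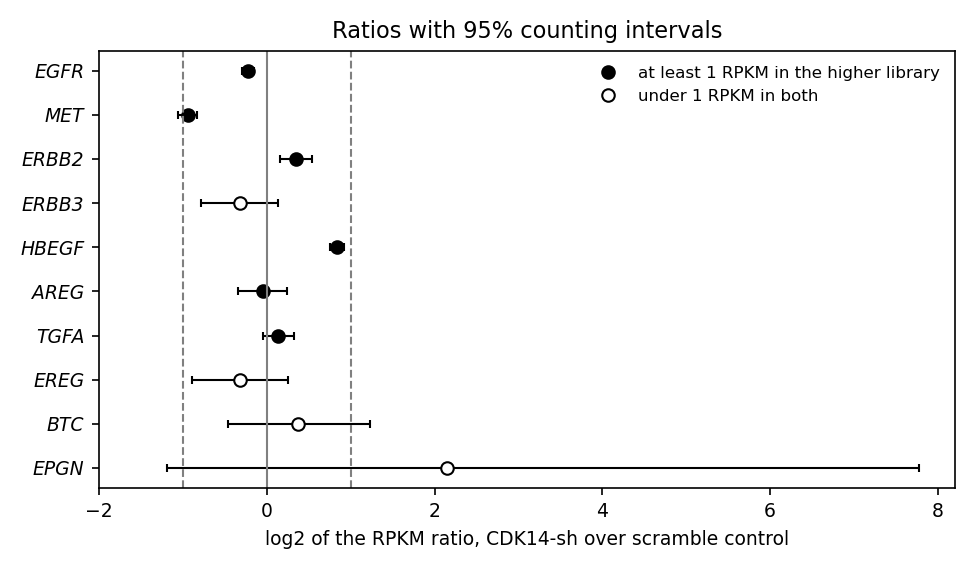
Plain RPKM ratio of CDK14-sh over scramble control for each member on a log2 scale, with 95% counting intervals. Filled points reached 1 RPKM in the higher library, and the dashed lines mark 2-fold. MET and HBEGF lie farthest from 0 among the filled points, at 1.92-fold lower and 1.78-fold higher, and the EPGN interval spans 0.440 to 219.

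The make-up of the ligand RNA differed with HBEGF. The 6 ligands summed to 79.7 RPKM in CDK14-sh, against 50.7 RPKM in the scramble control, which is 1.57-fold higher, and HBEGF made up 81.4% of the sum in CDK14-sh cells and 71.6% in scramble control cells. Without HBEGF the other ligands summed to 14.8 RPKM in CDK14-sh cells and 14.4 RPKM in scramble control cells, a ratio of 1.03. AREG made up 9.10% of the ligand sum in CDK14-sh cells and 14.8% in scramble control cells, and TGFA 7.84% and 11.2%.

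The receptor sum was lower. Together the 4 receptors summed to 25.9 RPKM in CDK14-sh, against 35.4 RPKM in the scramble control, 1.37-fold lower. MET made up 32.3% of that sum in CDK14-sh cells and 45.3% in scramble control cells. Most of the difference lay in MET, which is not an ERBB receptor (8.36 RPKM in CDK14-sh cells and 16.0 RPKM in scramble control cells). In the same order, EGFR stood at 14.0 and 16.3 RPKM, ERBB2 at 2.96 and 2.33 RPKM, and ERBB3 at 0.537 and 0.671 RPKM. HBEGF stood 4.62 times above EGFR in CDK14-sh cells (4.39 to 4.87) and 2.22 times above it in scramble control cells (2.10 to 2.35). AREG and TGFA differed by less than counting error in CDK14-sh (1.16 times, 0.974 to 1.38), while in the scramble control AREG stood 1.32 times above TGFA (1.12 to 1.55). BTC and EREG could not be ordered in either library. These ratios within a library do not depend on how the libraries were scaled to each other. The ratios of ligand and receptor sums between the libraries do depend on it, and no counting interval was computed for them.

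**Figure D3:**
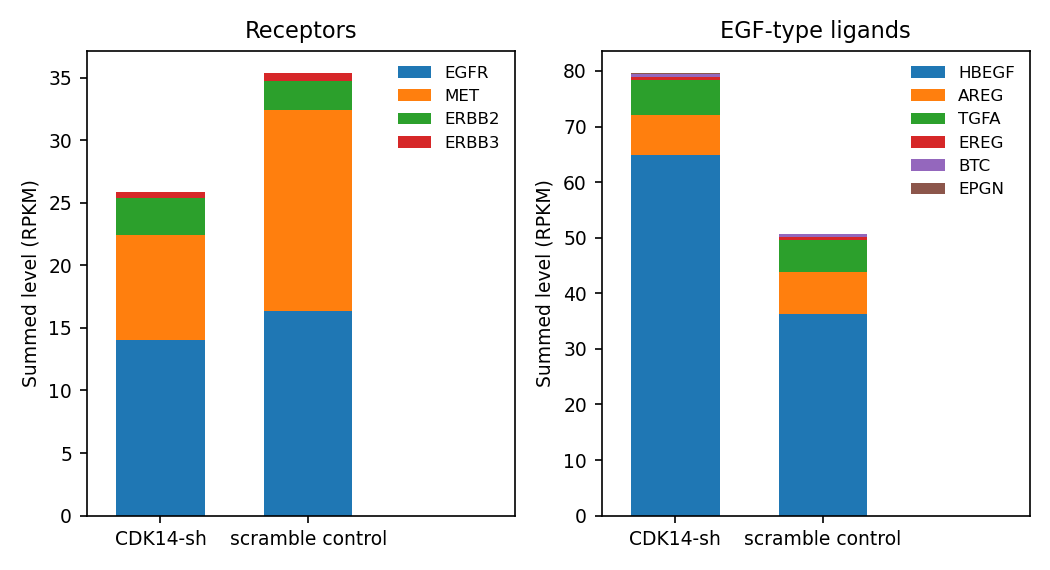
Summed level in RPKM of the 4 receptors (left panel) and the 6 EGF-type ligands (right panel), stacked by gene, in CDK14-sh and the scramble control (1 library each). The ligand bar is 79.7 RPKM in CDK14-sh cells and 50.7 RPKM in scramble control cells, with HBEGF as its largest part, and the receptor bar is 25.9 RPKM and 35.4 RPKM, with MET smaller in CDK14-sh.

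No member passed 2-fold in either direction by the size rule, which takes the log2 ratio with 0.1 RPKM added to each level and asks for 1 RPKM in the higher library. Of the 6 members measured, 0 were at least 2-fold higher, beside 3.21% of all 14878 genes measured, and 0 were at least 2-fold lower, beside 3.47%. Among the 10436 protein-coding genes measured, 1.04% were at least 2-fold higher and 2.17% lower, so 0 of 6 is near the background. At 1.5-fold, 1 of 6 was higher (HBEGF), beside 5.72% of protein-coding genes, and 1 of 6 was lower (MET), beside 7.60%. The median log2 ratio of the 6 was 0.04, the same as over all genes measured (0.04), with 3 members above and 3 below 0.

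Counting intervals left out a ratio of 1 for 4 of the 6 measured members: HBEGF and ERBB2 were higher, and MET and EGFR lower. The same held for 58.7% of protein-coding genes, so at this depth an interval that leaves out 1 is common. By ratio, HBEGF (log2 ratio 0.83) had 1.91% of protein-coding genes above it and MET (log2 ratio -0.93) had 2.52% below it. Among the 5650 protein-coding genes whose higher library held 500 reads or more, HBEGF ranked 62 from the highest ratio and MET 151 from the lowest.

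The place of MET relative to 2-fold, and the sign of TGFA, depended on how the libraries were scaled. When each library was rescaled to a common sum of RPKM (TPM), every ratio shifted and the median over all genes moved by -0.15 log2. MET then stood at -1.09 and passed 2-fold, and TGFA stood at -0.02. Relative to the median of all genes MET stood at -0.98 in both scalings and HBEGF at 0.79 in both. Mitochondrial genes took 17.1% of reads in CDK14-sh cells and 14.5% in scramble control cells, and with these reads left out of the totals 0 members passed 2-fold.

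**Figure D4:**
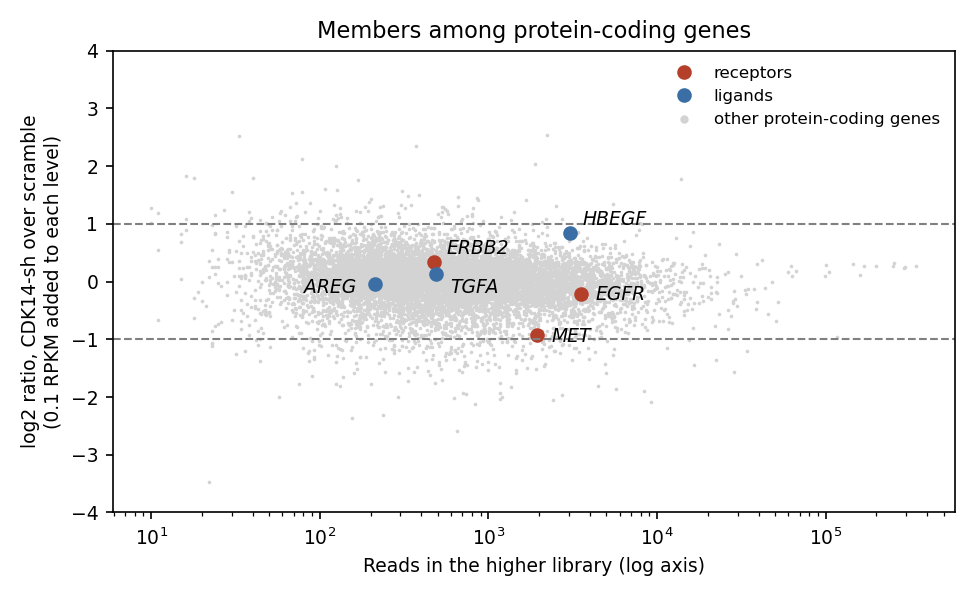
Log2 ratio of CDK14-sh over scramble control (0.1 RPKM added to each level) against reads in the higher library on a log axis, for protein-coding genes that reached 1 RPKM in that library. Receptors are red, ligands blue and other genes grey, and dashed lines mark 2-fold. HBEGF (0.83) and MET (-0.93) lie at the edges of the grey cloud at their depth, while the other 4 measured members lie inside it.

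A 27-base stretch of the MET 3' untranslated region (UTR) is shown because it holds a 7-base word whose carriers had lower ratios than other genes. Among all 7-base words found in at least 500 of the 10395 3' UTRs searched, the 4 with the lowest mean log2 ratio relative to genes without them were GTCATGC with its overlapping neighbour TCATGCA, and ATCCATA with its overlapping neighbour TCCATAA. These words were picked from the same ratios, MET included, so they are no independent evidence. Of the 10 members, MET alone carries any of them, in a single copy in capitals.
MET: ttctgataaaTCATGCAattaaagtaa

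The stretch lies at chr7:116798341-116798367 (GRCh38, plus strand, GENCODE), and the word covers bases 2227 to 2233 of a 3' UTR of 2262 bases. It is followed directly by ATTAAA, a known variant of the polyadenylation signal. The word TCATGCA occurs in 10.6% of the UTRs searched, and the genes with it had a median log2 ratio of -0.08, against 0.05 for those without. MET, at -0.93, lay lower than all but 6.35% of these carriers. The overlapping word GTCATGC, which MET does not carry, went with a lower median, -0.19, against 0.05 for genes without it. At least 1 of the 4 words occurs in 25.1% of the UTRs searched, and in 32.4% of the 1623 within 1.25 times the length of the MET UTR. A link between the word and the level of MET was not tested.

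Other receptors and ligands of the family were low apart from 1. ERBB4, which also binds HBEGF, had 2 reads in each library, and EGF itself had 38 reads in CDK14-sh cells and 30 in scramble control cells (0.401 and 0.284 RPKM). NRG1, encoding neuregulin 1, a ligand of ERBB3 and ERBB4, stood at 6.01 RPKM in CDK14-sh (1054 reads), against 7.37 RPKM in the scramble control (1437 reads), 1.23-fold lower (1.13 to 1.33). NRG2 had 23 and 22 reads and NRG4 38 and 35. NRG3 and HGF, the ligand of MET, had no row under these symbols, so they were not analysed here.

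Genes of the release and processing of the ligands (8 listed) had a median log2 ratio of -0.36 over 7 measured, the value of ADAM9. The 7 include TIMP3, an inhibitor of ADAM17, so the median does not cover releasing genes alone. TIMP3 stood at 86.0 RPKM in CDK14-sh cells and 121 RPKM in scramble control cells (log2 ratio -0.49). By the size rule, which sets the 2-fold counts of all lists, 1 of the 7 was at least 2-fold higher and 0 lower. Beside these counts, and those of the lists below, 1.04% of protein-coding genes measured were at least 2-fold higher and 2.17% lower. FURIN, encoding a proprotein convertase that cleaves the precursors of MET and of ADAM proteases, stood at 7.26 RPKM in CDK14-sh cells (531 reads) and 2.90 RPKM in scramble control cells (236 reads), 2.50-fold higher (2.14 to 2.93). ADAM17, the main sheddase of HBEGF, AREG and TGFA, stood at 17.1 and 16.7 RPKM, and ADAM10, the main sheddase of BTC, at 7.82 and 9.07 RPKM. RHBDF1 and RHBDF2, which encode the inactive rhomboids that carry ADAM17 to the cell surface, were singled out after their values were seen: RHBDF1 had 152 reads in CDK14-sh cells and 310 in scramble control cells, and RHBDF2 107 and 246 (log2 ratios of -0.84 and -0.98). As a plain ratio RHBDF2 was 2.07-fold lower (1.64 to 2.62), and it is not in the count of genes past 2-fold because the 0.1 RPKM added to each level takes its log2 ratio to -0.98.

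Signal relays downstream of the receptors were spread around 0. Among 16 adaptors and proximal effectors (median -0.06), 0 were 2-fold higher and 1 lower: STAT3, a transcription factor activated by receptor kinases, stood at 5.51 RPKM in CDK14-sh cells and 11.6 RPKM in scramble control cells, 2.11-fold lower (1.93 to 2.30). Among 11 genes of the PI3K and AKT branch (median -0.02), 0 were 2-fold higher and 1 lower: PIK3CA, a catalytic subunit of PI3K, stood at 2.77 and 5.75 RPKM, 2.08-fold lower (1.85 to 2.34). KCNMB3 on the other strand shares 36.2% of the PIK3CA exon length and had 144 reads in CDK14-sh cells and 308 in scramble control cells. Whether reads of KCNMB3 add to the PIK3CA difference was not tested. In the RAS and MAPK cascade 0 of 12 measured passed 2-fold in either direction (median -0.03), and MAP2K1, a kinase that activates ERK, had the highest log2 ratio (0.28).

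Genes that restrain the receptors, tag them with ubiquitin or move them had 0 of 23 past 2-fold in either direction and a median of 0.008. ERRFI1, encoding MIG6, a feedback inhibitor that binds the EGFR kinase, had the highest log2 ratio of the list, 0.80: it stood at 116 RPKM in CDK14-sh cells and 66.3 RPKM in scramble control cells, 1.75-fold higher (1.68 to 1.81). PTPN1, a phosphatase of receptor kinases, had the lowest, -0.59.

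Genes induced by ERK lay on both sides of 0, with 11 of 20 above 0 and a median of 0.12. None was 2-fold higher (0 of 20) and 1 was lower: SPRY1, a feedback inhibitor of receptor signalling, had 160 reads in CDK14-sh cells and 463 in scramble control cells, 2.60-fold lower (2.17 to 3.13). At 1.5-fold, 4 of 20 were higher, beside 5.72% of protein-coding genes measured, and 3 of 20 were lower, beside 7.60%. The shift of -0.15 that the TPM scaling brings is larger than this median and than that of the inhibitors, so the sign of both depends on the scaling. Other lists also held genes past 1.5-fold. Counts higher and lower were 1 and 2 of 7 for ligand release and processing, and 1 and 2 of 11 for PI3K and AKT. They were 0 and 1 of 16 for adaptors, 0 and 1 of 12 for RAS and MAPK, and 1 and 1 of 23 for the inhibitors. Of the lists below, other receptor kinases had 2 and 0 of 13, and the MET list 0 and 2 of 5.

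Other receptor tyrosine kinases did not pass 2-fold in either direction (0 of 13 measured, median -0.03), with DDR1, a collagen receptor, at a log2 ratio of 0.81 (277 and 169 reads) and ROR1 at -0.52 (398 and 641 reads). AXL was the most abundant of the receptors named here, at 123 RPKM in CDK14-sh cells and 130 RPKM in scramble control cells. Among partners of MET and genes of the activation of its ligand, 5 of 10 were measured, with a median of -0.47. The 5 were CD44, GAB1, ITGA6, ITGB4 and SPINT2, an inhibitor of that activation, so the median covers no activator. HGFAC (1 read in CDK14-sh cells and 0 in scramble control cells) and ST14 (3 and 7 reads) were under 1 RPKM in both. Of the 5 measured, 0 were at least 2-fold higher and 1 lower. ITGB4, encoding integrin beta 4, a known partner of MET, stood at 4.14 RPKM in CDK14-sh cells and 8.38 RPKM in scramble control cells, 2.02-fold lower (1.81 to 2.27), and so lies at the limit. Of the genes past 2-fold in these lists, STAT3, PIK3CA and FURIN carry at least 1 of the 4 words in the 3' UTR, FURIN being the one that was higher, while SPRY1 and ITGB4 carry none. MSN, past 2-fold among the line markers, carries GTCATGC, and RHBDF2 carries ATCCATA with TCCATAA. ERRFI1, which was higher, carries GTCATGC. CAV1 and VIM, both lower, carry TCATGCA and ATCCATA, while CD44, which was higher, carries ATCCATA and AXL carries none. Low ratios of carriers set the choice of these words, so carriers among lower genes are no evidence of a link. At least 1 of the words occurs in 25.1% of the UTRs searched. The PIK3CA UTR has 5729 bases, against a median of 1359 over the UTRs searched.

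**Figure D5:**
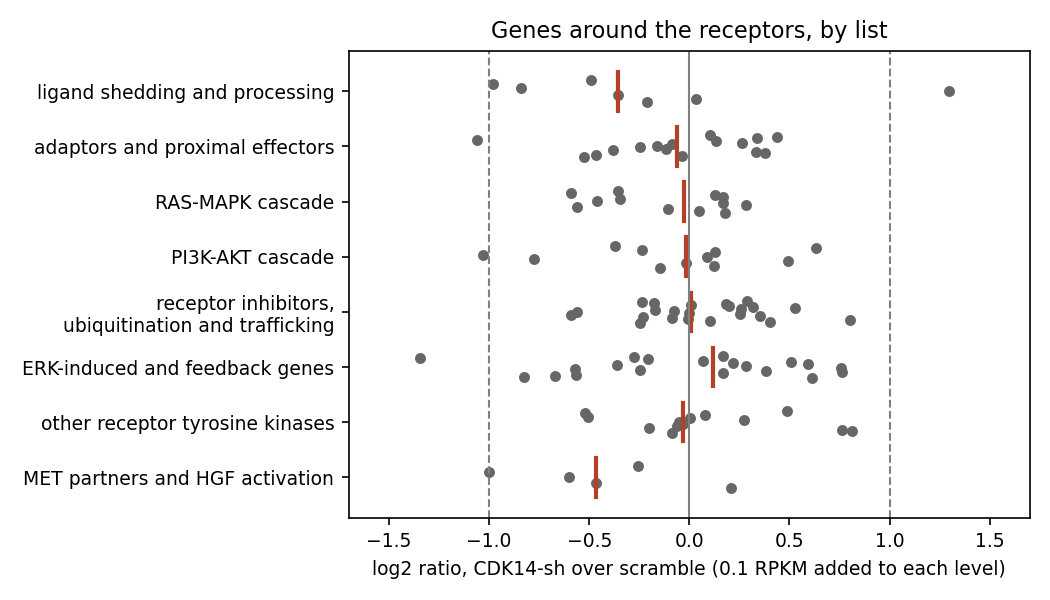
Log2 ratio of CDK14-sh over scramble control (0.1 RPKM added to each level) for genes that reached 1 RPKM in their higher library, by list, with each list's median as a red bar and dashed lines at 2-fold. Medians lie between -0.47 (MET partners) and 0.12 (ERK-induced genes), and FURIN is the single gene beyond 2-fold on the higher side.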

How the data were processed

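Per the labels' protocols, a stranded mRNA kit was used for both RNA libraries. Both libraries share 1 deposited table, in which the authors give RPKM and summed exon length for 29452 gene rows. The submitters' processing notes list, without roles, featureCounts, Subread 1.5.1, Bowtie 0.12.2 and the genome builds mm8 and GRCh38. In the members' rows, 299 of 299 exons have both ends in GENCODE 29 (GRCh38), so printed coordinates are on GRCh38. How strand and multiply mapped reads were handled is not given in the sources used here. RPKM times length gave whole reads for 100% of nonzero values within 0.01 read, and these reads served for the 95% Clopper-Pearson intervals. Reads that are PCR copies of 1 molecule count separately, so an interval reflects counting error alone.

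Ratios were log2 of RPKM plus 0.1 in CDK14-sh over RPKM plus 0.1 in the scramble control. This scale understates the change of low genes. A gene counted as measured when its higher library reached 1 RPKM. Members are named in full, and other genes by list: those past 2-fold whose higher library held 30 reads or more, or else the highest and lowest, of which 1 is not reported here. With 2 libraries no likeness of pattern was measured. Members and lists were chosen with earlier results of these data known. For 3' UTRs, the GENCODE basic transcript with the longest one was used, and promoters are from RefSeq (GRCh38.p14). Read recovery, ratios and intervals were tested on simulated data. Scripts ran in Python 3.11.15 (scipy 1.17.1, pandas 2.3.3, numpy 2.4.6; figures, matplotlib 3.10.9).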

Additional observations from a re-analysis of the deposited data

How the results depend on the processing

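No paired analysis was possible because there was 1 library a group. Alternatives numbered 10, of which 3 were added after the data had been seen: mitochondrial reads left out of the totals, at least 30 reads in place of the level filter, and the plain ratio of RPKM. With a 2-fold limit, 0 members were higher and 0 lower, except in TPM, where 1 was lower (MET). At 1.5-fold 1 was higher (HBEGF) and 1 lower (MET). The median log2 ratio of the measured members was 0.04. It was -0.20 in TPM, where 9 members reach 1 TPM and the median of all genes shifts by -0.15, and -0.13 over the 8 members with at least 30 reads. It also turned below 0 with a level of at least 5 RPKM (-0.049) and centred on the median of all genes (-0.001), and lay between 0.036 and 0.085 in the others. Of 50 values of single members under the settings that can change a ratio, 47 stayed within their counting interval and 3, all in TPM, moved: EGFR to -0.37, HBEGF to 0.68 and MET to -1.09. The sign turned for TGFA in TPM (-0.02) and for no other member. HBEGF ranged from 0.68 to 0.88 and MET from -1.09 to -0.86. Depth limits ERBB3, EREG, BTC and EPGN, whose intervals all hold 1.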
